A study of Mus musculus with 12 samples.

Results

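Lgr4, Lgr5 and Lgr6 encode the receptors for R-spondins, Rspo1 to Rspo4 encode those secreted ligands, and Tnfrsf19 (also called Troy) encodes a TNF receptor superfamily member that associates with Lgr5 in intestinal stem cells. The members were taken by gene name: each was required to have a probe annotated to that gene alone, and the probe with the highest mean was to stand for a gene with several. All 8 genes had exactly 1 such probe, so the values chose no probe, and the 8 are among 19938 genes measured. The genes were chosen by name with earlier results of these arrays known, and the measured values taken as used are the differences between CHIR99021 and untreated cells, in which Tnfrsf19 was higher. The comparison of CHIR99021 alone with untreated cells is therefore given for the members as a description with no p-value; its calls are counted below without being read as support, and the p-values reported for members are those of the other comparisons.

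Expression was measured on Affymetrix arrays in mouse epiblast stem cells (EpiSCs), pluripotent cells that resemble the epiblast after implantation, of genetic background 129. The treatments act on Wnt signalling from opposite sides: CHIR99021 blocks the kinase GSK3, so that beta-catenin accumulates, and XAV939 blocks tankyrase, so that Axin accumulates and beta-catenin is degraded. All cells were kept without serum for 12 h, although the growth medium recorded for every sample contains 10% serum. The 4 groups of 3 arrays were untreated cells, cells given 3 µM CHIR99021 for 2 h, cells given 2 µM XAV939, and cells given both compounds at those doses. For XAV939 the sample labels give 2 h but the series design gives 4 h, and the difference could not be settled. The sample description field calls the cells embryonic stem cells.

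R-spondins bind Lgr4, Lgr5 or Lgr6 and the membrane E3 ubiquitin ligases Znrf3 and Rnf43, which otherwise remove Frizzled receptors from the cell surface. Binding takes the ligases away, so that a cell responds more strongly to the Wnt it already receives. Several genes of this module are themselves Wnt/beta-catenin targets in other tissues: Lgr5 and Tnfrsf19 mark Wnt-driven stem cells of the mouse intestine, and Axin2, Znrf3 and Rnf43 are negative feedback targets.

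Values are log2 expression, so a difference of 1 is a doubling, and the log base was inferred from their range of 2.52 to 14.3. As a rough background measure, the 95th percentile of the mean values of 1194 olfactory and vomeronasal receptor genes was 4.94. Lgr4, Lgr5, Rspo1, Rspo3 and Tnfrsf19 had means over the 12 arrays above this measure. Lgr6, Rspo2 and Rspo4 lay below it on all 12 arrays. Rspo3 was above it on 11 arrays. Array medians spanned 5.22 to 5.27 and array standard deviations 2.14 to 2.21, no 2 arrays were identical, and correlations between arrays were 0.990 to 0.995. Nothing in the labels says that replicates were separate cultures, so the p-values reflect a spread between samples that could be purely technical. In such bulk samples, a change in the number of cells with a transcript and a change in the amount per cell cannot be told apart.

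The general pluripotency markers were high, and their mean was similar in all groups: that of Pou5f1, Sox2, Nanog, Sall4, Lin28a and Utf1 lay between 10.4 and 10.6 on every array. Among them Nanog differed most with CHIR99021, by 0.38 (SE 0.10, limma adjusted p = 0.123). Of the primed markers, Fgf5, Otx2, Dnmt3b, Pou3f1, Zic2 and Foxd3 were above the background measure, while Cer1, Lefty1 and Lefty2 were below it. Of 10 fibroblast markers 7, of 7 streak and mesoderm markers 5 and of 7 endoderm markers 4 were also below it. Of 9 naive embryonic stem cell markers 5 were above it, as were 4 of 5 neural markers, all but Sox10. No member of the 7 marker lists passed limma's test in any comparison. Eomes, a mesendoderm factor, is not in these lists but among the Wnt/beta-catenin target genes below. It was called higher with CHIR99021, by 0.59. The mean of the 9 naive embryonic stem cell markers was 5.28 to 5.33 untreated and 5.40 to 5.51 with CHIR99021, and its part in the results was not tested. The primed list was at 7.46 to 7.50 untreated and 7.35 to 7.44 with CHIR99021, and the list of 5 neural markers at 5.32 to 5.36 and 5.12 to 5.31. The fibroblast list was at 4.91 to 5.0 untreated and 4.83 to 4.90 with CHIR99021, the streak list at 4.76 to 4.79 and 4.71 to 4.75, and the endoderm list at 4.87 to 4.95 and 4.80 to 4.83.

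CHIR99021 went with higher expression of 1 receptor, 1 ligand and Tnfrsf19, and with smaller differences in the other members. Rspo3 was 0.63 higher than in untreated cells (SE 0.08, 1.54-fold), Tnfrsf19 0.56 higher (SE 0.08, 1.47-fold) and Lgr5 0.49 higher (SE 0.07, 1.40-fold). The other 5 members differed by between -0.08 (Lgr4) and 0.16 (Rspo4). Among these, Lgr6, Rspo2 and Rspo4 were below the background measure, where a change could be missed. With XAV939 also present, the same 3 genes lay above their level with XAV939 alone by 0.31 to 0.39. Lgr4 did so too, by 0.30, and none of these differences passed limma's test. With both compounds, the mean levels of Lgr5, Rspo3 and Tnfrsf19 lay between those in untreated cells and with CHIR99021 alone. None of the 3 passed limma's test for both compounds against CHIR99021 alone. The choice of the set favours lower values in that comparison, so nothing is read from the direction.

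**Figure D1:**
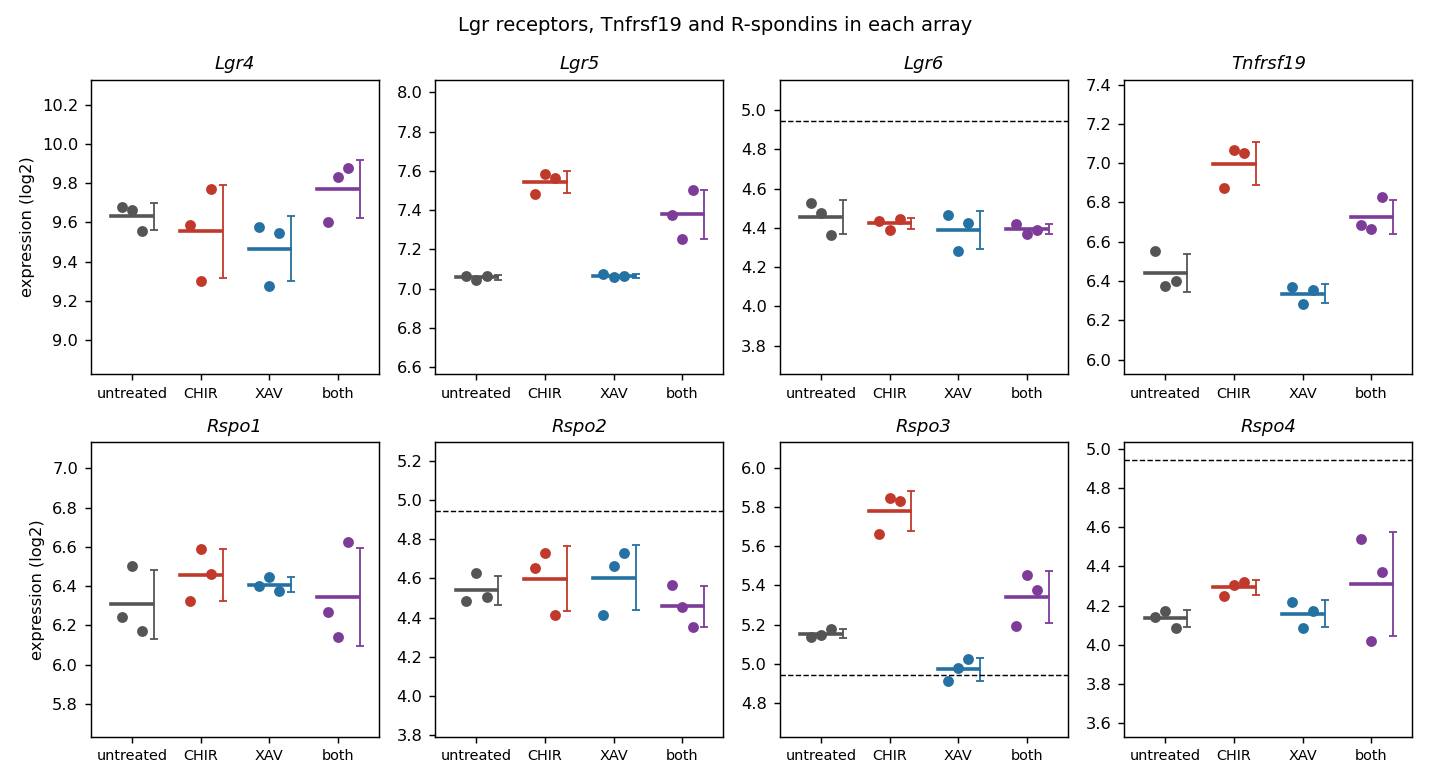
Expression (log2, vertical axis) of the 8 genes in each of the 12 arrays, by group (horizontal axis). Points are arrays, thick lines group means, thin bars the SD of 3 arrays, and the dashed line is the background measure of 4.94. Each panel spans the same range, 1.5 on the log2 scale. Lgr5, Tnfrsf19 and Rspo3 stand higher in the 3 CHIR99021 arrays than in any untreated array, while Lgr6, Rspo2 and Rspo4 lie below the dashed line throughout.

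Among the receptors, Lgr5, which in adult epithelia is best known as a stem cell marker, varied little within the untreated and XAV939 groups. In untreated cells it was at 7.07, 7.04 and 7.06 in replicates 1 to 3, and with XAV939 at 7.08, 7.06 and 7.06. With CHIR99021 it was at 7.48, 7.59 and 7.57, and with both compounds at 7.38, 7.26 and 7.50. All 6 arrays with CHIR99021 therefore lay above all 6 without it. The group means (± SD, n = 3) were 7.06 ± 0.01 and 7.07 ± 0.01 in untreated and XAV939 cells, against 7.55 ± 0.05 for CHIR99021 and 7.38 ± 0.12 for both compounds.

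For both compounds against untreated, Lgr5 rose by 0.32 (SE 0.07, limma adjusted p = 0.0487), narrowly inside the threshold of 0.05. It was the only 1 of 8 members called there, where limma called 1.13% of all genes (0.818% higher and 0.311% lower), and the comparison shares its untreated arrays with the one that was used to choose the set. The call ended in 16 of 22 alternative fits, in which the adjusted p ranged from 0.023 to 0.148 and the change from 0.24 to 0.38. These 16 included quantile normalization and the fits without any 1 of the untreated, both-compound or CHIR99021 arrays, or without XAV939 replicates 1 or 3.

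For both compounds against XAV939 alone, which shares no array with CHIR99021 against untreated, Lgr5 was 0.31 higher (SE 0.07, 95% interval 0.16 to 0.47) and did not pass (limma adjusted p = 0.118). XAV939 alone differed from untreated by 0.01 for Lgr5 (SE 0.07, 95% interval -0.15 to 0.16). Both compounds against CHIR99021 alone gave -0.17 (SE 0.07, limma adjusted p = 0.429), and the arrays of those groups overlapped. In order of mean level the conditions ran CHIR99021, both compounds, XAV939, untreated. Of these neighbours, only both compounds and XAV939 did not overlap between arrays.

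Lgr4, the receptor with the broadest expression in mouse tissues, was well above the background measure and spread widely within groups. It was at 9.68, 9.66 and 9.55 in untreated cells and at 9.59, 9.30 and 9.77 with CHIR99021. With XAV939 it was at 9.57, 9.27 and 9.55, and with both compounds at 9.60, 9.83 and 9.88. The CHIR99021 arrays spanned the untreated ones on either side. Both compounds against XAV939 alone gave a difference of 0.30 (SE 0.11, limma adjusted p = 0.392) with no overlap between arrays, and without XAV939 replicate 2, the lowest of all 12, it was 0.21. The interaction (the effect of CHIR99021 in cells given XAV939, less its effect in cells without) was 0.38 for Lgr4 (SE 0.16, limma adjusted p = 0.965). By mean level the order was both compounds, untreated, CHIR99021, XAV939, and all 3 neighbouring pairs overlapped.

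Lgr6, the third R-spondin receptor, lay between 4.28 and 4.53 on all arrays. Its largest difference between groups was -0.06, for XAV939 against untreated (SE 0.07, limma adjusted p = 0.762). At this level, below the background measure, a change in the transcript could be missed. The related glycoprotein and relaxin hormone receptors Fshr, Tshr, Rxfp1 and Rxfp2 were also below the measure, and none of them was called in any comparison.

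Tnfrsf19, the TNF receptor superfamily member, was at 6.55, 6.37 and 6.40 in untreated cells and at 6.87, 7.07 and 7.05 with CHIR99021. With XAV939 it was at 6.37, 6.28 and 6.35, and with both compounds at 6.69, 6.67 and 6.83. The 6 arrays with CHIR99021 again all stood above the 6 without it, and every XAV939 array stood below every untreated one, the closest pair by less than 0.01. The means were 6.44 ± 0.10 (SD, n = 3), 7.0 ± 0.11, 6.34 ± 0.05 and 6.73 ± 0.09 in the order untreated, CHIR99021, XAV939 and both.

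Both compounds against XAV939 alone gave 0.39 for Tnfrsf19 (SE 0.08, 95% interval 0.22 to 0.56), which did not pass over all genes (limma adjusted p = 0.0624). The adjusted p over 22 alternative fits was 0.0303 to 0.248, and 3 of them called the gene: both filters on dim genes and array weights. Against untreated cells both compounds gave 0.28 (SE 0.08, limma adjusted p = 0.0838), and against CHIR99021 alone -0.27 (SE 0.08, limma adjusted p = 0.268), with no overlap between arrays in either. XAV939 alone gave -0.11 (SE 0.08, limma adjusted p = 0.622). The conditions ran CHIR99021, both compounds, untreated, XAV939, and no neighbouring pair overlapped.

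RefSeq lists 2 start sites for Tnfrsf19 (assembly GRCm38.p6). Both windows, each of 250 bases before to 50 bases after a start, are shown because they differ in one known letter pattern. TCF/LEF factors, which carry beta-catenin to DNA, are known to favour CTTTGAT, and both strands were searched. Capitals mark a match, here its reverse complement.
Tnfrsf19, chr14:61046806-61047105, minus strand: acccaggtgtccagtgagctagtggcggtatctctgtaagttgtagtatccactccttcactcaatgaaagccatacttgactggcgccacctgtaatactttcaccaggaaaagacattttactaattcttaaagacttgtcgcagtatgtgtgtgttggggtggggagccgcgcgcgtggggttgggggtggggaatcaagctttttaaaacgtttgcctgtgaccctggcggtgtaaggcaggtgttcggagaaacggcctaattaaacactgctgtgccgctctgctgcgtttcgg
Tnfrsf19, chr14:61037938-61038237, minus strand: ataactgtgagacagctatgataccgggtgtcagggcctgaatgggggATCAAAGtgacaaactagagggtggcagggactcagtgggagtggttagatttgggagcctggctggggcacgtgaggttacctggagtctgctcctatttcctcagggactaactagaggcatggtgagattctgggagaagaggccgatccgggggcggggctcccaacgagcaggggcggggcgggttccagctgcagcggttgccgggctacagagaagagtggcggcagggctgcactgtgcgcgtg

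The first window held no match and the second held 1, with its first base at position -202 from the start. Of 32851 windows of this length in the RefSeq table, 3.73% held the pattern. Windows were given for 5 of the 8 members, and those of Lgr4, Lgr6, Rspo1 and Rspo4 held no match, nor did that of Axin2. Lgr5, Rspo2 and Rspo3 had none in the table. A match describes letters only, and the array probe does not tell which start was used.

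Among the ligands, Rspo3, which is needed for placental vessels in the mouse embryo, showed the widest spread between conditions, 0.81 from the lowest to the highest group mean. It was at 5.13, 5.15 and 5.18 in untreated cells and at 5.66, 5.85 and 5.83 with CHIR99021. With XAV939 it was at 4.91, 4.98 and 5.03, and with both compounds at 5.20, 5.45 and 5.37. The 4 groups did not overlap, although the lowest array with both compounds was only just above the highest untreated array. Untreated cells had a mean of 5.15 ± 0.02 (SD, n = 3), CHIR99021 5.78 ± 0.10, XAV939 4.97 ± 0.06 and both compounds 5.34 ± 0.13, so the XAV939 group sat at the background measure.

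Both compounds against XAV939 alone gave 0.37 for Rspo3 (SE 0.08, 95% interval 0.20 to 0.54), which did not pass (limma adjusted p = 0.0829, 0.0429 to 0.329 over 21 alternative fits). Both compounds against CHIR99021 alone gave -0.44 (SE 0.08, 95% interval -0.61 to -0.27), also not called (limma adjusted p = 0.088). For XAV939 alone the difference from untreated was -0.18 (SE 0.08, limma adjusted p = 0.42), and for both compounds 0.19 (SE 0.08, limma adjusted p = 0.226). The order was CHIR99021, both compounds, untreated, XAV939.

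Rspo1, which in the mouse takes part in ovary determination, was above the background measure but followed no treatment. It ranged from 6.17 to 6.50 untreated, 6.32 to 6.59 with CHIR99021, 6.37 to 6.45 with XAV939 and 6.14 to 6.62 with both, so all groups overlapped. Its differences lay between -0.11 and 0.15 over the 5 comparisons of groups, with an SE of 0.12, and limma's adjusted p was 0.755 or higher in the 4 comparisons other than CHIR99021 against untreated. For CHIR99021 against untreated the 95% interval was -0.09 to 0.40, which does not show that Rspo1 was unaffected.

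Rspo2 and Rspo4, ligands with roles in mouse limb and in human nail formation respectively, gave values below the background measure. Rspo2 lay between 4.35 and 4.73 and its groups overlapped in every comparison. Rspo4 was at 4.14, 4.17 and 4.09 untreated and at 4.25, 4.31 and 4.32 with CHIR99021, which do not overlap. With both compounds it was at 4.54, 4.02 and 4.37, a range that takes in the untreated and CHIR99021 arrays. Neither gene was called in any comparison.

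Counted over the set, limma called 3 members higher and none lower with CHIR99021 against untreated, where 0.421% of all genes were called (0.256% higher and 0.166% lower); since Tnfrsf19 in this comparison helped to choose the set, nothing is read from the count. In that comparison 4 members had all CHIR99021 arrays above all untreated ones and none had them below, against 8.09% and 8.25% of all genes. With both compounds against XAV939 alone, 4 members (Lgr4, Lgr5, Rspo3 and Tnfrsf19) had arrays that did not overlap and were higher, and none lower, against 6.94% and 7.32% of all genes. In that comparison limma called none of the 8, where it called 0.236% of all genes (0.1% higher and 0.135% lower), and 4 had an unadjusted p under 0.05, as did 9.69% of all genes. The median change of the 8 was 0.23, against -0.004 over all genes.

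XAV939 alone gave no call among the 8 or among all genes (0%), with 1 member, Rspo3, at an unadjusted p under 0.05, as were 11.2% of all genes. Rspo3 and Tnfrsf19 had all XAV939 arrays below all untreated ones and none had them above, against 8.17% and 9.48% of all genes. Both compounds against CHIR99021 alone gave no call among the 8, against 0.0251% of all genes, and 3 members had an unadjusted p under 0.05, as did 11% of all genes. There Rspo3 and Tnfrsf19 did not overlap and were lower, and none higher, against 7.18% and 8.92% of all genes. That comparison reuses the CHIR99021 arrays whose values were used in choosing the set, which favours lower values, so nothing is read from the direction. With both compounds against untreated, 3 members (Lgr5, Rspo3 and Tnfrsf19) did not overlap and were higher, and none lower, against 13% and 12% of all genes. Both comparisons against untreated cells share the untreated arrays with CHIR99021 against untreated.

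**Figure D2:**
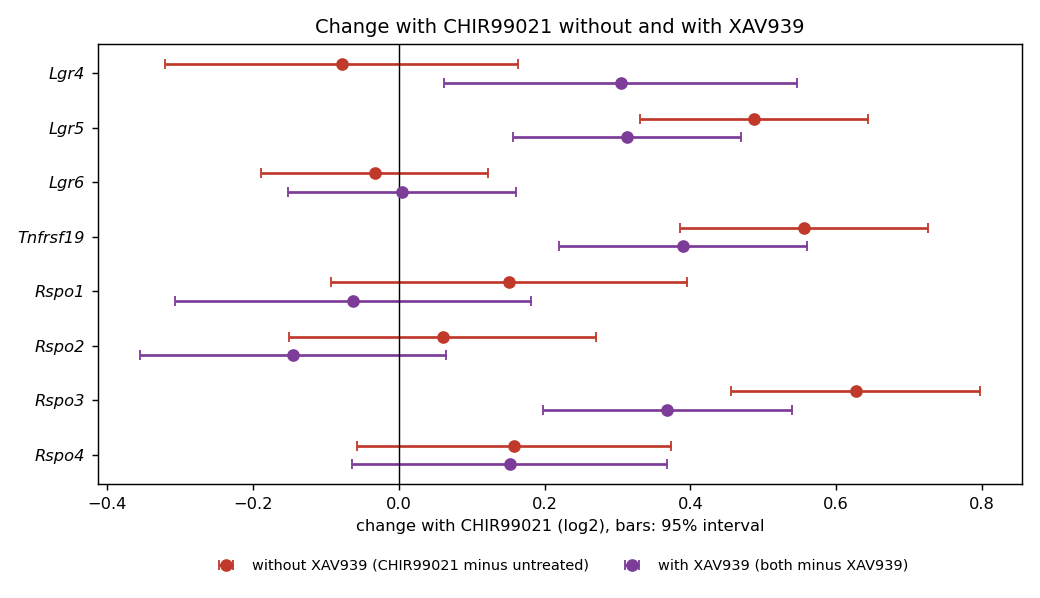
Change with CHIR99021 (log2, horizontal axis) of the 8 genes without XAV939 (CHIR99021 minus untreated, red) and with XAV939 (both compounds minus XAV939, purple). Points are limma estimates from 3 arrays a group and bars their 95% intervals. The red values were used in choosing the set and are shown as a description. For Lgr4, Lgr5, Rspo3 and Tnfrsf19 the purple intervals lie above 0, although no gene passed the adjusted test there, and they overlap the red ones. The red interval of Lgr4 spans 0.

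The interaction compares the CHIR99021 change with and without XAV939. It contains the difference between CHIR99021 and untreated cells that was used in choosing the set, which favours negative values for genes high with CHIR99021, so its sign is no support. It was -0.26 for Rspo3 (SE 0.11), -0.17 for Lgr5 (SE 0.10) and -0.17 for Tnfrsf19 (SE 0.11). None of the 8 passed, with limma's adjusted p at 0.965 or higher, and 0% of all genes were called. An unadjusted p under 0.05 was found for 2 members (Rspo3 and Lgr4) and for 4.94% of all genes. The 95% interval was -0.50 to -0.02 for Rspo3, -0.40 to 0.05 for Lgr5 and -0.41 to 0.07 for Tnfrsf19, and these intervals are wide beside the changes themselves. The smaller changes with XAV939 present are therefore not shown to differ from those without it.

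The proteins with which R-spondins act were described through a list of 21 genes. Znrf3, the E3 ligase removed by R-spondin, was the only 1 called. It rose by 0.62 with CHIR99021 (SE 0.09, limma adjusted p = 0.00248), where 0.421% of all genes were called. With both compounds against XAV939 it rose by 0.52 (SE 0.09, limma adjusted p = 0.0141), where 0.236% were called. Znrf3 is also on the target list below, which was chosen with results of these arrays known, so its calls are no independent support. The mean of Znrf3 (± SD, n = 3) was 7.20 ± 0.15 for CHIR99021 and 7.25 ± 0.06 for both compounds, above 6.58 ± 0.11 in untreated and 6.73 ± 0.06 in XAV939 cells. The arrays with both compounds thus overlapped those with CHIR99021 alone, and the difference was 0.04 (SE 0.09, 95% interval -0.14 to 0.23). For Rspo3 the same comparison gave -0.44, as above.

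Rnf43, the partner ligase, was below the background measure on every array and had a change of -0.08 with CHIR99021 (SE 0.08, limma adjusted p = 0.779). The other genes of the list changed by between -0.38 (Fzd9) and 0.26 (Rnf146) with CHIR99021 and by between -0.31 (Fzd2) and 0.27 (Fzd10) with both compounds against XAV939. Fzd9, a Frizzled receptor gene, did not pass with CHIR99021 (limma adjusted p = 0.0955), and neither did Fzd2 (limma adjusted p = 0.322) nor Rnf146, whose product marks Axin for destruction (limma adjusted p = 0.346). The co-receptor genes Lrp5 and Lrp6 had changes of -0.13 and -0.02. The median change of the 21 was 0.01 with CHIR99021 and 0.07 with both compounds against XAV939.

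**Figure D3:**
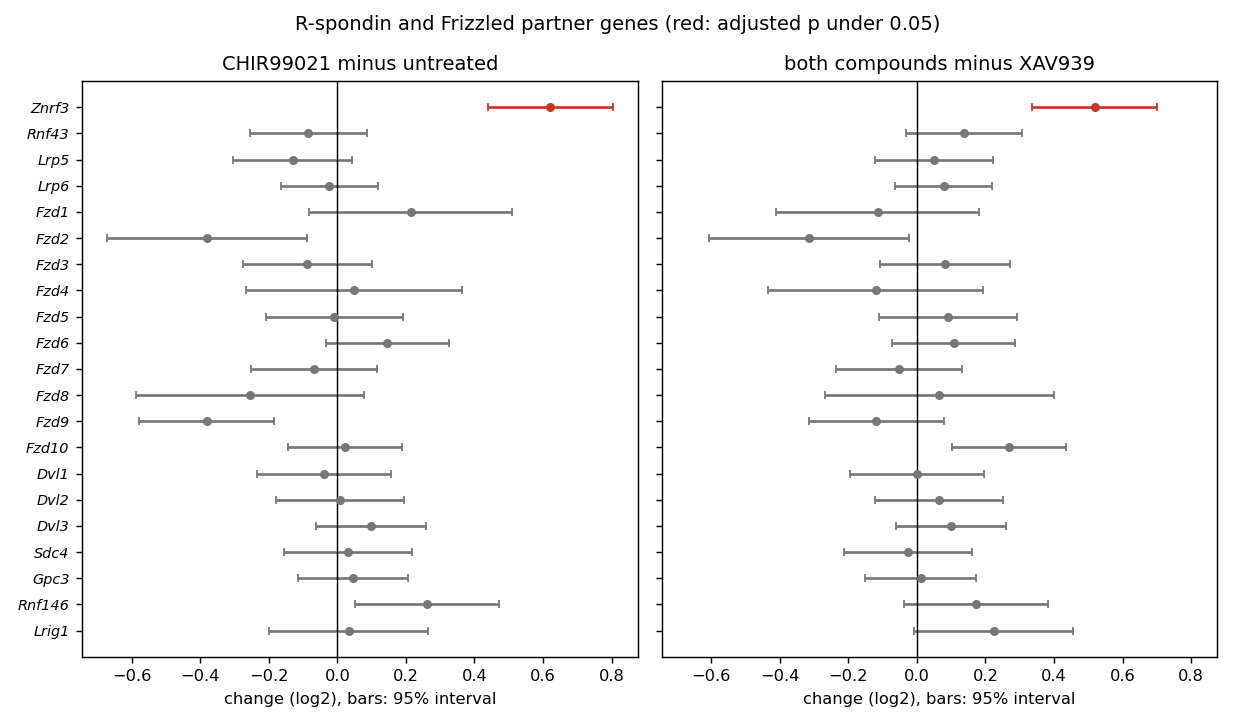
Change (log2, horizontal axes) of 21 genes of the Frizzled receptor complex and its regulators for CHIR99021 minus untreated (left) and both compounds minus XAV939 (right). Points are limma estimates from 3 arrays a group and bars their 95% intervals. Znrf3, in red, is the only gene called in either panel, at 0.62 and 0.52.

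The 3 members were set beside 23 measured Wnt/beta-catenin target genes, a list chosen with earlier results of these arrays known. With CHIR99021 the members rose less than Sp5 (1.08), Axin2 (1.06) and Wnt8a (0.72). Their changes were larger than the median change of the list (0.03). With CHIR99021, 7 of the 23 were called higher and none lower, against 0.256% and 0.166% of all genes. The 7 were Axin2, Sp5, Wnt8a, Znrf3, Eomes, Cdx2 and Dkk1. Since the list was chosen with those results known, neither this count nor the adjusted p of Axin2 is read as support. Axin2, the feedback inhibitor, rose by 1.06 (SE 0.10, limma adjusted p = 4.83e-05), from 5.94 ± 0.15 (SD, n = 3) to 7.0 ± 0.04. The members' changes of 0.49 to 0.63 were near that of Eomes, a mesendoderm factor (0.59). The means of Cdx2, Sp5 and Dkk1 over the 12 arrays were below the background measure. With both compounds against XAV939, Axin2 (0.72), Wnt8a (0.66) and Znrf3 were called higher and Myc (-0.48) lower, against 0.1% and 0.135% of all genes. The median change of the 23 was 0.03 and 0.07 in these comparisons.

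The TNF receptor superfamily was set beside Tnfrsf19 through 27 other genes, 13 of them above the background measure. None was called in any of the 6 comparisons. With CHIR99021 the changes lay between -0.26 (Tnfrsf13c, a superfamily gene of B cells) and 0.26 (Tnfrsf10b, a TRAIL receptor gene). Their median was -0.06. With both compounds against XAV939 they lay between -0.32 (Tnfrsf13c) and 0.23 (Ltbr).

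For each of the 5 members above the background measure, the 5 genes most like it were taken by Pearson correlation over the 12 arrays among 11593 other genes above that measure. Those r values describe treatment groups as much as single arrays, since the points fall into 4 groups, and they carry no test. For Lgr5 the genes were Epha4 (r = 0.977), Cdkn2aip (0.974), Epha7 (0.965), Tnfrsf19 (0.963) and Wnt8a (0.963). For Rspo3 they were Gbx2 (0.966), Tiparp (0.943), Eomes (0.942), Tnfrsf19 (0.942) and Epha7 (0.937). For Tnfrsf19 they were Epha7 (0.978), Nodal (0.968), Lgr5 (0.963), Gbx2 (0.959) and Wnt8a (0.959). Tnfrsf19 was thus in the lists of both Lgr5 and Rspo3, while Lgr5 and Rspo3 had r = 0.882.

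Once group means were removed, the correlation over the 12 arrays was 0.711 for Lgr5 with Tnfrsf19, 0.331 for Rspo3 with Tnfrsf19 and 0.020 for Lgr5 with Rspo3. The highest of the 10 pairs by this measure was Lgr5 with Rspo1, at 0.761, against 0.397 with the group means kept. Epha7, an ephrin receptor gene, had means (± SD, n = 3) of 9.0 ± 0.09 for CHIR99021, 8.74 ± 0.09 for both compounds, 8.51 ± 0.05 for untreated and 8.43 ± 0.06 for XAV939 cells. Epha7 thus had the condition order of Tnfrsf19 and Rspo3.

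**Figure D4:**
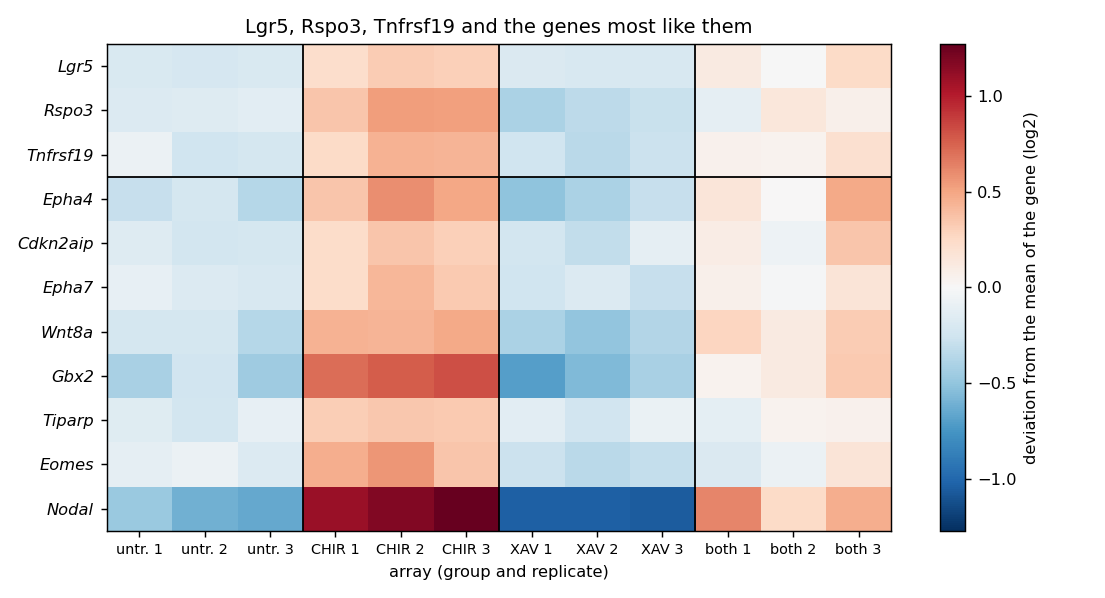
Deviation of each array from the mean of the gene over 12 arrays (log2, colour) for Lgr5, Rspo3 and Tnfrsf19 (top rows) and the genes most like them. Columns are arrays by group and replicate. All rows are above their mean in the CHIR99021 arrays and below it in the XAV939 arrays, and the mean of the arrays with both compounds lies between those of these groups, with Nodal showing the widest range.

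Lgr4 and Rspo1 had other neighbours. The genes most like Lgr4 were Nudc (r = 0.960), Niban3 (0.933), Avl9 (0.929), Psmb3 (0.928) and Ubac1 (0.920), and none of these was called in any comparison. Those most like Rspo1 were Lrrc27 (r = 0.891), Acsl4 (0.859), Pcyt1b (0.837), Ppox (0.833) and Gtpbp4 (0.831), none of them called either. The correlations of Lgr4 with Lgr5, Rspo3 and Tnfrsf19 were 0.177, 0.139 and 0.222.

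In the RefSeq table the loci of Lgr5, Rspo1 and Tnfrsf19 overlap 1 other gene each (A930009A15Rik, Gm12930 and Gm41167), and whether the probes read any transcript of those genes is not known.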

How the data were processed

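The authors deposited 1 table of 35399 probes by 12 arrays. The deposited values were made with Partek, per the submitters' processing notes, which give no version, and were read as log2 intensity because of their range. The scale, background correction, normalization and summary method are not given in the sources used here. No further normalization was applied. Of the probes, 21789 had 1 gene symbol, 1621 several and 11989 were not listed in the platform annotation. Symbols were updated through gene identifiers (RefSeq, GRCm38.p6; 91 unmatched), and the highest-mean probe stood for each of 19938 genes.

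Group means of all 12 arrays were fitted with limma 3.58.1 in R 4.3.3 (lmFit, eBayes, two-sided), with 6 contrasts and Benjamini-Hochberg adjustment over all genes within each. The threshold for a call was an adjusted p of 0.05, and SE and 95% intervals are those of the fit. The fit was tested on simulated data. Arrays carry no read depth, and 3 arrays per group limit the precision. Alternatives were 2 normalizations, 2 filters on dim genes, the mean of all probes, array weights (statmod 1.5.0), a trended and robust eBayes, fits with only the groups of a comparison, a replicate block, a fold of at least 1.5 and arrays left out. The named genes were the 8 members, the 5 genes most like each member above background, Znrf3, Rnf43, Axin2 and up to 4 genes with the smallest p per list, besides the called genes and the extremes of a range, which were named after their values were seen. Tcf7, Ephb2, Tbxt and Lhcgr were not analysed here. The members and lists were chosen with earlier results of these data known. Figures were drawn with matplotlib 3.10.9.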

Additional observations from a re-analysis of the deposited data

How the results depend on the processing

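The calls with CHIR99021 against untreated are no independent support, since that comparison was used in choosing the set. There Lgr5, Rspo3 and Tnfrsf19 were called in every alternative fit that tested them, apart from the fold threshold below, and 3 members were called in each fit that left out 1 array. Rspo3 was not tested under the filter at the median expression, where 2 members were called, and a fold of at least 1.5 left 1, Rspo3. With both compounds against untreated, the 1 call (Lgr5) became 0 under quantile normalization, cyclic loess, the fit to both groups alone, the replicate block, a fold of at least 1.5 and without the pair of arrays of narrowest spread (untreated replicate 3 and XAV939 replicate 2). It became 2 (Lgr5 and Tnfrsf19) with the filter at the median expression and with array weights, and lay between 0 and 1 without single arrays. With both compounds against XAV939, the 0 calls became 1 (Tnfrsf19) with either filter on dim genes and 2 (Rspo3 and Tnfrsf19) with array weights. In the other 3 comparisons every alternative gave 0 calls among the members. Fewer genes are tested under the filters; for the other changes the cause was not tested.

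Of 18 pairs of arrays with the same replicate number in different groups, 6 had deviations from their group means correlated above 0.1. Some pairs of unlike number did so too. The range was -0.247 to 0.201 for pairs of the same number, against -0.301 to 0.328 for pairs of unlike number. For XAV939 with both compounds the same-number pairs were at 0.087, 0.159 and 0.104, and those of unlike number at -0.138 to 0.048. Whether arrays of the same number were handled together cannot be told from these values. With the replicate block, the members called were 3 with CHIR99021 against untreated and 0 in the other 5 comparisons. Over all genes the block gave 168 calls with both compounds against untreated, where 225 were called without it, and 1 in place of 5 with both against CHIR99021. Over all genes the calls with both compounds against untreated ranged from 10 to 550 over the alternatives, with CHIR99021 against untreated from 30 to 119, with both against XAV939 from 19 to 70 and with both against CHIR99021 from 0 to 10. Array weights gave 8 calls with XAV939 alone, where no other alternative gave any. Members near the background measure can change without a difference in these values.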
